A study of Mus musculus with 12 samples.

Results

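The genes described here carry calcium out of the endoplasmic reticulum, pump it back, and let it in from outside once the store is empty. They are 10 genes out of 20614 measured, chosen by name as targets or partners of the calcium messengers that Cd38 makes: the IP3 receptors Itpr1, Itpr2 and Itpr3, the ryanodine receptors Ryr1, Ryr2 and Ryr3, the store pump Atp2a2, the store sensor Stim1, the plasma membrane channel Orai1 and the ADP-ribose channel Trpm2. All 10 were in the table. RNA came from midbrain astrocytes of male mice aged 12 to 14 months, in 3 Cd38+/+, 3 Cd38+/- and 6 Cd38-/- libraries. The mice were on a C57BL/6J background, and the mutants, of the strain the study's methods print as B6.129P2-Cd38tm1Ln/J, carry the tm1Lnd allele of Cd38, a global disruption in exons 2 and 3. Cd38 was therefore disrupted in every cell type and throughout life, not in astrocytes alone. Astrocytes were caught on ACSA-2 beads after myelin, microglia and endothelial cells had been depleted, from tissue that took in thalamus and striatum as well as the substantia nigra. Nothing in the labels says that each library is a separate animal, so p-values measure the spread between these libraries, which may in part be technical.

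CD38 turns NAD into cyclic ADP-ribose and ADP-ribose, and at acid pH makes NAADP. Cyclic ADP-ribose acts on ryanodine receptors, ADP-ribose opens TRPM2, and NAADP acts on two-pore channels of lysosomes. Astrocytes are best known for the other arm of the system: G protein-coupled receptors raise IP3, IP3 receptors release store calcium, SERCA pumps return it, and STIM1 senses an empty store and opens ORAI1.

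Values are in TPM, a transcript abundance scaled to transcript length and to a library sum of 1000000. Levels of different genes are set side by side on that scale. Whether long and short transcripts were recovered alike was not tested. The longest coding transcripts of Ryr1, Ryr2 and Ryr3 have 15358 to 16814 bases, that of Itpr2 has 11679 and that of Orai1 has 1875. How many reads a value rests on is not known, and a 0 is only a listing at 0. Between 13160 and 13516 genes were above 0 in Cd38+/+ libraries, 16160 to 16327 in Cd38+/- and 15920 to 17906 in Cd38-/-, and the median SD of log2 expression was 0.49, 0.20 and 0.23 in the same order. The Cd38+/+ libraries thus stood apart from both other genotypes in detection and spread, along the line of the comparison, and what part this has in the differences from Cd38+/+ was not tested. The 10 astrocyte markers summed to 10425 to 14896 TPM in Cd38+/+, 15605 to 17506 in Cd38+/- and 11998 to 15032 in Cd38-/-, and no astrocyte marker was at 0 throughout a genotype. Th, Mog, Cx3cr1, Tmem119, Kl and Aqp1, markers of neurons, oligodendrocytes, microglia and choroid plexus, were at 0 in every Cd38+/+ library and not throughout either other genotype. Their lists were not empty in Cd38+/+. The neuron markers summed to 45 to 72 TPM there, 30 to 70 in Cd38+/- and 40 to 127 in Cd38-/-. In the same order the oligodendrocyte sums were 1300 to 7187, 3093 to 11030 and 3176 to 17814. The microglial sums were 107 to 119, 132 to 161 and 116 to 165, and the choroid plexus sums 112 to 303, 192 to 7009 and 232 to 1924.

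Levels of the targeted gene fell in the order of the genotype labels. Cd38 held 148.64, 120.04 and 104.88 TPM in Cd38+/+, 90.8, 90.7 and 90.36 in Cd38+/-, and 21.86, 11.9, 13.49, 17.85, 20.47 and 8.54 in Cd38-/-. The 3 genotypes did not overlap. Libraries without overlap and lower than Cd38+/+ made up 3.62% of tested genes in Cd38-/- and 6.94% in Cd38+/-. The gene-level value also counts exons outside the disruption. On the log2 scale Cd38-/- differed from Cd38+/+ by -2.96 (SE 0.28, limma q = 0.00116). With limma's library weights the difference was -3.14 (limma q = 0.109). Cd38+/- differed from Cd38+/+ by -0.44 (SE 0.18, limma q = 0.226). The exact permutation p of Cd38+/- was 0.1, the smallest that 3 against 3 libraries allow. Neither the weighted fit nor the Cd38+/- comparison passed the q threshold given below.

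In all 3 genotypes Atp2a2 was the most abundant of the 10 genes, and its lowest library lay above the highest library of any other. Orai1, Itpr2 and Stim1 followed, and the range of Itpr2 overlapped both others in every genotype, while in Cd38+/+ Orai1 (53.73 to 65.86 TPM) lay above Stim1 (45.69 to 53.08). Their medians were 62.21, 58.03 and 52.89 TPM in Cd38+/+. Itpr1 came next, below the lowest of these and without overlap, at a median of 15.31 TPM in Cd38+/+, 16.77 in Cd38+/- and 16.755 in Cd38-/-. Itpr3, Trpm2 and the ryanodine receptors formed the low end, with genotype medians from 0 to 2.14 TPM. At the RNA level these preparations held the IP3 receptor, SERCA and STIM1-ORAI1 genes at 8.69 to 483.91 TPM, apart from the lower Itpr3, and the targets of cyclic ADP-ribose and ADP-ribose at 7.49 TPM or less.

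**Figure D1:**
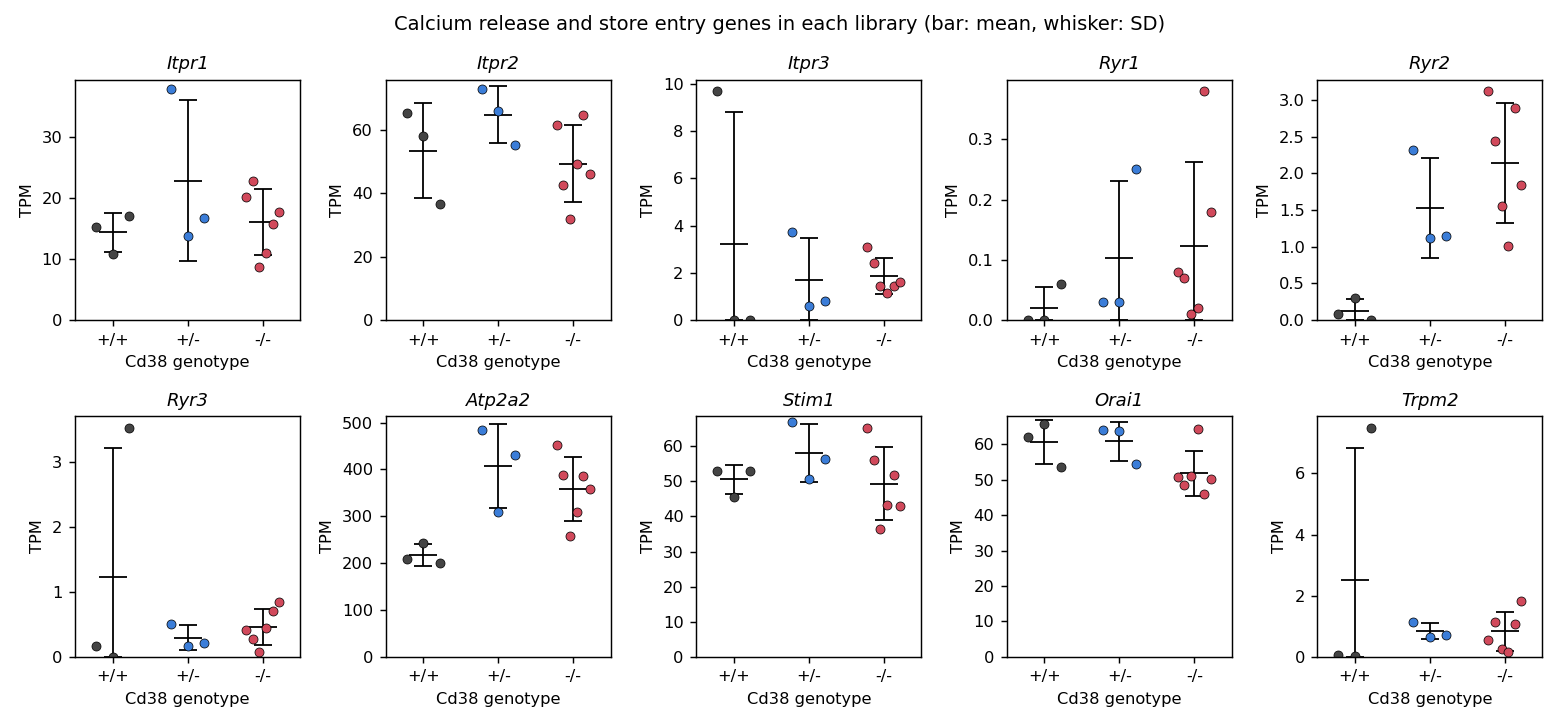
TPM of each of the 10 genes (vertical axis, its own scale per panel, starting at 0) in each library, by Cd38 genotype. Points are libraries, the bar is the genotype mean and the whisker the SD, cut at 0. Atp2a2 and Ryr2 are the panels where no Cd38+/+ library reaches the other genotypes, and Itpr3, Ryr3 and Trpm2 each have 1 Cd38+/+ library far above the other points.

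Atp2a2 encodes SERCA2, the pump that refills the endoplasmic reticulum. The gene (ENSMUSG00000029467) lies on the minus strand of GRCm38 at chr5:122453513-122502225. Its messages end in different ways, and the TPM adds them together. In the GENCODE vM21 annotation, 2 transcripts carry a complete reading frame and share 2983 coding bases. Atp2a2-201, with a coding sequence of 3135 bases, reads on through exon 20 and gives the long SERCA2b end, which is the form of most cells. Atp2a2-202, with 2997, leaves exon 20 for exon 21 and gives the short SERCA2a end of heart and slow muscle. The bases around this branch are shown because the deposited value cannot tell the ends apart. Lower case marks the last 45 shared bases, at chr5:122457303-122457347, and capitals the first bases of each transcript's own end, at chr5:122457258-122457302 in Atp2a2-201 and chr5:122454291-122454304 in Atp2a2-202, all coding and on the minus strand:
Atp2a2-201: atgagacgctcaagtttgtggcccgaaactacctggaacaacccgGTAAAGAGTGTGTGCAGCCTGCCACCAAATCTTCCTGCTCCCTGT
Atp2a2-202: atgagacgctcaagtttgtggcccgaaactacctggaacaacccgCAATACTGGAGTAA

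Atp2a2 was higher in Cd38-/- astrocytes. Its TPM was 209.73, 243.71 and 199.84 in Cd38+/+, 483.91, 308.03 and 430.87 in Cd38+/-, and 452.96, 387.49, 258.51, 308.12, 385.33 and 357.75 in Cd38-/-. Every library of the mutant genotypes lay above every Cd38+/+ library. The means were 218 ± 23.0 (SD, n = 3), 408 ± 90.2 (SD, n = 3) and 358 ± 67.9 (SD, n = 6). On the log2(TPM + 1) scale the change in Cd38-/- against Cd38+/+ came to 0.70 (SE 0.16, limma q = 0.0253), with an exact permutation p of 0.0119, the smallest that 6 against 3 libraries allow. In a bulk sample, more RNA per cell and more cells of a type that holds the RNA cannot be told apart.

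A differentially expressed gene (DEG) here has a limma q under 0.05, adjusted over all genes tested, and a change of at least 1.2-fold. By this rule 970 of 11722 genes were DEGs in Cd38-/- against Cd38+/+, or 8.28%, and Atp2a2 was the 1 DEG among the 5 calcium genes that were high enough to be tested (a mean above 5 TPM in at least 1 compared genotype). The others tested were Itpr1, Itpr2, Stim1 and Orai1, while Itpr3, Ryr1, Ryr2, Ryr3 and Trpm2 were below this limit in all 3 comparisons. Libraries without overlap and higher in Cd38-/- made up 8.21% of the tested genes.

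Against the same Cd38+/+ libraries, Atp2a2 in Cd38+/- differed by 0.88 on the log2 scale (SE 0.19), which did not pass the threshold (limma q = 0.176). No gene of 11763 did so in limma, or 0%. At an unadjusted limma p under 0.05 stood 13.5% of all genes and 1 of the 5, Atp2a2. Its libraries did not overlap, which 15.5% of tested genes also showed in the upward direction. In one limma fit of all 12 libraries its q in Cd38+/- was 0.0152. Between Cd38-/- and Cd38+/- the log2 difference was -0.18 (SE 0.18, limma q = 0.538), and the libraries overlapped. In that comparison 4 of 11563 genes were DEGs, or 0.0346%. Of the 5 calcium genes tested, 0 were DEGs in limma and 0 had an unadjusted p under 0.05, beside 11.2% of all genes.

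The size of the Atp2a2 change depended on scaling. The median gene was 0.15 higher on the log2 scale in Cd38-/- than in Cd38+/+, and over 5 equal classes of transcript length the class medians ran from -0.026 in the shortest to 0.29 in the longest. Atp2a2, with a longest coding transcript of 4486 bases, belongs to the fourth class, whose median was 0.26. Rescaled so that expression had no trend along length or GC content within a library, Atp2a2 was higher by 0.35 (limma q = 0.0413), and with median-ratio scaling by 0.57 (limma q = 0.0268). The call was lost without Cd38-/- replicate 1, 2, 5 or 6, with q from 0.0568 to 0.0683, and with limma's library weights (q = 0.345). The log2 change was 0.63 to 0.71 in these fits. Of all genes, 0.633 to 1.31% were DEGs without 1 of those libraries and 0.00853% with the weights, against 8.28% as reported. The call was also lost with a replicate block (limma q = 0.318), and with block and trend removal together (limma q = 0.422). With either, 0.0171% of all genes were DEGs.

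Marker lists of other cells gave no sum that separated Cd38-/- from Cd38+/+. The sums of all 10 marker and stress lists overlapped between these genotypes, but in several lists most members lay on the same side. All 5 choroid plexus markers had the higher mean in Cd38-/-, with a median sum of 544 TPM (232 to 1924) against 122 (112 to 303), and so did 4 of 4 ependymal, 8 of 9 microglial and 7 of 8 oligodendrocyte markers. The ependymal sums were 3236 to 5070 TPM against 2513 to 4761, and the microglial sums 116 to 165 against 107 to 119. The oligodendrocyte sums were 3176 to 17814 TPM against 1300 to 7187. Of 7 endothelial markers 0 had the higher mean in Cd38-/-, at sums of 233 to 661 TPM against 231 to 1017. The mean was also higher in Cd38-/- for 7 of 10 astrocyte and 7 of 10 neuron markers. It was so for 2 of 4 oligodendrocyte precursor, 4 of 8 mural and fibroblast, and 4 of 12 dissociation response genes. Among all genes tested, 64.3% had a log2 fold change above 0 in this comparison. The part of these marker differences in the Atp2a2 difference of Cd38-/- was not tested. In Cd38+/-, the astrocyte sum and the microglial sum (132 to 161 TPM against 107 to 119) lay above Cd38+/+ without overlap, and the sum of 12 genes of the dissociation response lay below (464 to 735 against 935 to 1166). The part of these shifts in the Atp2a2 difference of Cd38+/- was not tested.

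Itpr2 was the leading IP3 receptor, and its level did not differ past the threshold between genotypes. Itpr2 (ENSMUSG00000030287, chr6:146108299-146502223, minus strand) encodes the subtype that carries most IP3-driven release in astrocyte cell bodies. Its TPM was 65.27, 58.03 and 36.57 in Cd38+/+, 72.87, 65.97 and 55.15 in Cd38+/-, and 61.46, 42.47, 31.98, 49.15, 64.62 and 45.84 in Cd38-/-. The genotypes overlapped in all comparisons. Cd38-/- differed from Cd38+/+ by -0.11 on the log2 scale (SE 0.24, limma q = 0.466). From Cd38+/- it differed by -0.41 (SE 0.20, limma q = 0.337).

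Itpr1, the subtype dominant in neurons, was at 15.31, 10.82 and 16.99 TPM in Cd38+/+, at 37.91, 13.83 and 16.77 in Cd38+/-, and between 8.69 and 22.77 in Cd38-/-. Cd38+/- replicate 1 stood above all other libraries. Against Cd38+/+ the log2 difference was 0.10 for Cd38-/- (SE 0.32, limma q = 0.497), and for Cd38+/- it was 0.52 (SE 0.43, limma q = 0.378). The first turned to -0.017 with median-ratio scaling and to -0.22 with the length and GC trend removed, so no direction can be given.

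Itpr3, the subtype of many secretory epithelia, was at 9.7, 0 and 0 TPM in Cd38+/+, at 3.73, 0.58 and 0.81 in Cd38+/-, and between 1.15 and 3.11 in Cd38-/-. A single Cd38+/+ library held the highest value of all 12 and the other two were listed at 0. The exact permutation test of Cd38-/- against Cd38+/+ gave p = 0.714. Without Cd38+/+ replicate 1 the log2 difference was 1.48 (exact permutation p = 0.0357, the smallest that the remaining libraries allow). Without either of the other Cd38+/+ libraries it was -0.23, so the sign rests on replicate 1. With all libraries in, 17.4% of genes below the limit were higher in Cd38-/- than in Cd38+/+ without overlap.

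Of the summed IP3 receptor TPM, Itpr2 made up 68.3 to 84.3% in Cd38+/+, 63.6 to 82.1% in Cd38+/- and 62.8 to 80.2% in Cd38-/-. The ranges nearly coincided. The ratio of Atp2a2 to Itpr2, a measure within each library chosen after the values were seen, was 3.21 to 5.46 in Cd38+/+, 4.67 to 7.81 in Cd38+/- and 5.96 to 9.12 in Cd38-/-. The Cd38-/- and Cd38+/+ ratios did not overlap, and the Cd38+/- ratios overlapped both. The ratio reuses the Atp2a2 values, which already separated Cd38-/- from Cd38+/+, so it is a description and adds no support.

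**Figure D2:**
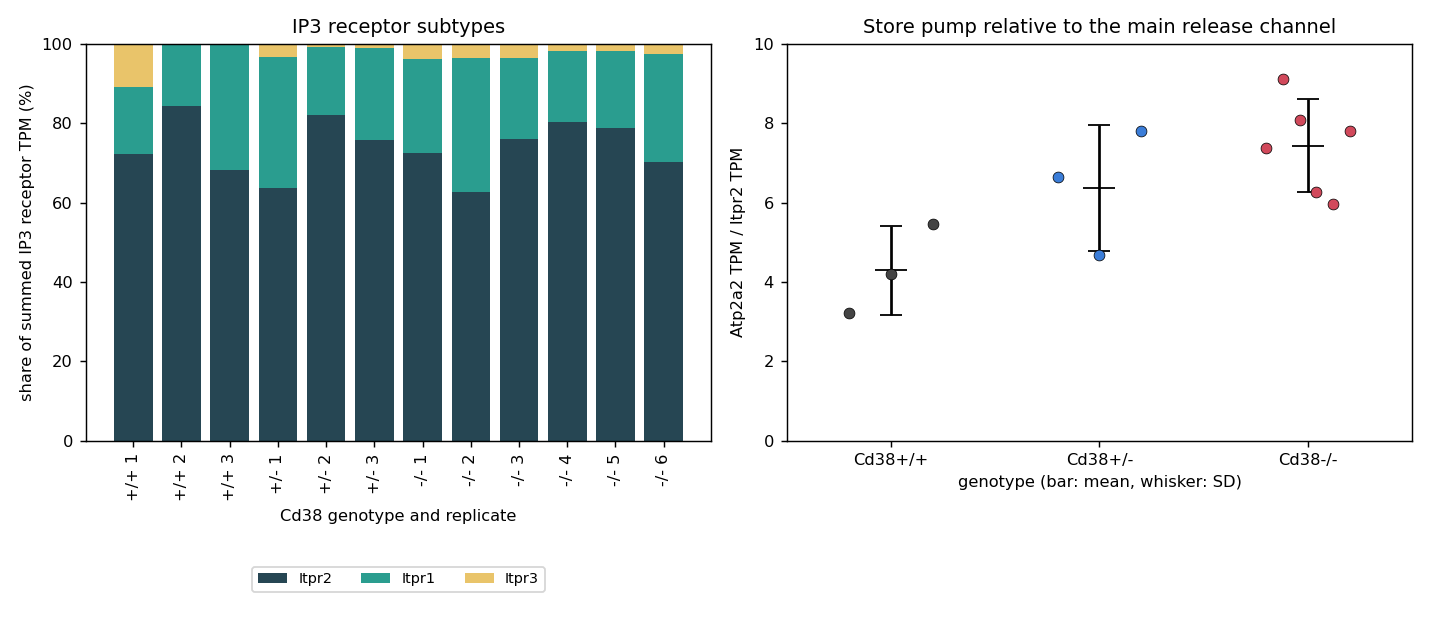
Left, the share of Itpr2, Itpr1 and Itpr3 in the summed IP3 receptor TPM of each library (stacked bars, in percent). Right, Atp2a2 TPM divided by Itpr2 TPM, with a point per library, the mean and the SD for each genotype. Itpr2 takes 62.8% or more of every bar, and the 6 Cd38-/- ratios, from 5.96, lie above the 3 Cd38+/+ ratios, which end at 5.46. The ratios reuse the Atp2a2 values, which separate the same genotypes.

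Ryanodine receptors were low in TPM. Ryr2, the cardiac and main brain subtype, was the one whose libraries separated both mutant genotypes from Cd38+/+. Its TPM was 0.08, 0.3 and 0 in Cd38+/+, 2.32, 1.12 and 1.14 in Cd38+/-, and 3.12, 2.44, 1.55, 1.01, 2.89 and 1.84 in Cd38-/-. Every mutant library was above every Cd38+/+ library. The log2(TPM + 1) difference was 1.44 in Cd38-/- (exact permutation p = 0.0119, the smallest that 6 against 3 libraries allow) and 1.14 in Cd38+/- (exact permutation p = 0.1, the smallest for 3 against 3). In the limma fit without the limit on low values Ryr2 was a DEG in both, with q = 0.00528 and q = 0.0375. Between Cd38-/- and Cd38+/- its libraries overlapped, at a log2(TPM + 1) difference of 0.30 (exact permutation p = 0.286).

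Among genes below the limit, 17.4% were higher in Cd38-/- than in Cd38+/+ without overlap, and 29.2% in Cd38+/-, against 0.348% and 0.643% lower. Without the limit, 12.1% of genes were DEGs in Cd38-/- and 3.85% in Cd38+/-. The Ryr2 separation therefore sits in a class of low genes where separation upward from Cd38+/+ was common, beside the smaller number of genes seen in those libraries. The longest coding transcript of Ryr2 has 16814 bases, and genes over 8000 bases had a median log2 fold change of 0.28 in Cd38-/-. Its fold size depends on the pseudocount: the log2 difference in Cd38-/- was 3.45 with a pseudocount of 0.1 and 0.47 with 5.

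Ryr1, the skeletal muscle subtype, did not exceed 0.38 TPM in any library, and was listed at 0 in 2 of 3 Cd38+/+ libraries. Ryr3, a subtype of brain and smooth muscle, was at 0.16, 0 and 3.52 TPM in Cd38+/+, between 0.16 and 0.51 in Cd38+/- and between 0.07 and 0.84 in Cd38-/-. Its highest library, Cd38+/+ replicate 3, was also the highest for Aven, an apoptosis inhibitor gene on the opposite strand whose exons overlap those of Ryr3, at 35.77 TPM against 6.81 to 12.73 in all others. The counting is not stated to use strand, so reads of Ryr3 and Aven cannot be told apart here. Without that library the Ryr3 difference of Cd38-/- changed from -0.28 to 0.41, with exact permutation p of 0.667 and 0.107.

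The promoter of Ryr2 is shown because this is the release channel that separated both mutant genotypes from Cd38+/+. It stands beside that of Atp2a3, the second store pump gene, described below. Promoters here are the 250 bases before and 50 after the RefSeq start (GRCm38.p6), and 7 of the 10 genes had an entry. Ryr2 lies at chr13:12106896-12107195 on the minus strand and Atp2a3 at chr11:72960919-72961218 on the plus strand. Capitals mark the GC box GGGCGG on either strand, with overlapping matches run together. It was found 2 times in Ryr2 and 5 times in Atp2a3, and at least once in 35.7% of all 32851 promoters of this length:
Ryr2: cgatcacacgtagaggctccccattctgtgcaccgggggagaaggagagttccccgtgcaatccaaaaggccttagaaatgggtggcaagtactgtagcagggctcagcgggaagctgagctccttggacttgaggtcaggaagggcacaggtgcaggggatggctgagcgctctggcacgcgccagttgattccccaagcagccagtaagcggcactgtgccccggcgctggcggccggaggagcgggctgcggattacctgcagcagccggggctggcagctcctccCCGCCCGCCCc
Atp2a3: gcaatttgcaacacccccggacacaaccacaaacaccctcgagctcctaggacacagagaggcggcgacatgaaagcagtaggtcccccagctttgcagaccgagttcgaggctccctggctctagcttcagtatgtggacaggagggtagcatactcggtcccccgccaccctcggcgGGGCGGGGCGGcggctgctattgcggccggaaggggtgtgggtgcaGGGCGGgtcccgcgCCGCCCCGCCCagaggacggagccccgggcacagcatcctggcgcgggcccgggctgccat

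The other motifs searched on both strands in these windows were TATAAA (in 13.6% of all promoters), CCAAT (37.4%), TGACGTCA (1.79%), CACGTG (7.15%) and the ER stress response element (0.119%), and none was in the Ryr2 or Atp2a3 window. A match to these letters is a description of the sequence only.

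Neither gene of store-operated entry passed the test. Stim1, the store sensor, was at 53.08, 45.69 and 52.89 TPM in Cd38+/+, at 66.99, 50.71 and 56.26 in Cd38+/-, and at 65.18, 56, 36.52, 43.24, 51.74 and 42.98 in Cd38-/-. The Cd38-/- range enclosed the Cd38+/+ range. Against Cd38+/+ the log2 difference was -0.058 for Cd38-/- (SE 0.19, limma q = 0.500). For Cd38+/- it was 0.19 (SE 0.21, limma q = 0.440), and -0.21 when the length and GC trend was removed.

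Orai1, which forms the channel pore, was at 62.21, 65.86 and 53.73 TPM in Cd38+/+, at 64.18, 63.86 and 54.59 in Cd38+/-, and at 50.72, 48.41, 51.12, 64.27, 46.06 and 50.36 in Cd38-/-. In Cd38-/-, 5 of 6 libraries lay below every library of both other genotypes, and replicate 4 lay among them. Cd38-/- differed from Cd38+/+ by -0.22 on the log2 scale (SE 0.15, limma q = 0.221). The difference from Cd38+/- was -0.23 (SE 0.12, limma q = 0.353). Exact permutation tests gave p = 0.0714 and p = 0.0833. The ratio of Stim1 to Orai1 was 0.694 to 0.984 in Cd38+/+, 0.794 to 1.04 in Cd38+/- and 0.673 to 1.29 in Cd38-/-.

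Trpm2, the plasma membrane channel gated by ADP-ribose, was at 0.07, 0.01 and 7.49 TPM in Cd38+/+, at 1.13, 0.66 and 0.71 in Cd38+/-, and between 0.15 and 1.83 in Cd38-/-. The single high library was again Cd38+/+ replicate 3. Against Cd38+/+ the log2 difference of Cd38-/- was -0.27 (exact permutation p = 0.786), and 0.74 without that library (exact permutation p = 0.107). With values this low and 1 library deciding the sign, no direction can be given.

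**Figure D3:**
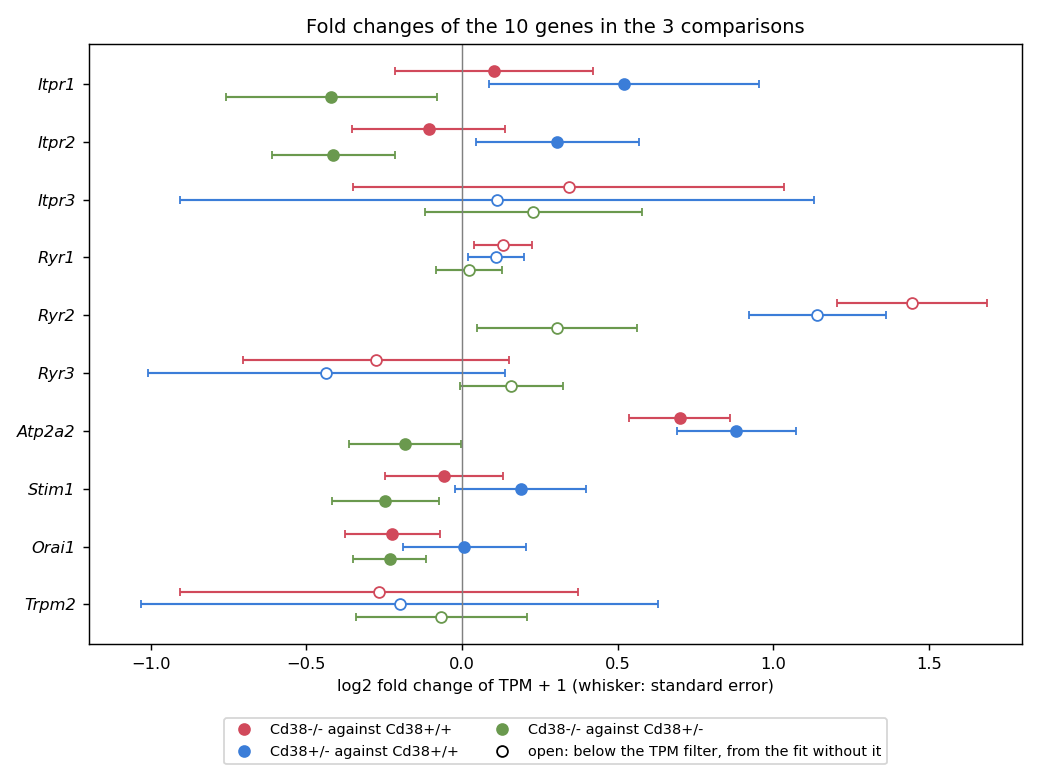
Log2 fold change of TPM + 1 (horizontal axis) with its standard error for the 10 genes in the 3 comparisons. Filled points come from the limma fit of genes above the TPM limit, open points from the fit without it. Atp2a2 (0.70 and 0.88) and Ryr2 (1.44 and 1.14) lie away from 0 in both comparisons with Cd38+/+, which share the 3 Cd38+/+ libraries, and no gene does so by more than a log2 change of 0.42 between the mutant genotypes.

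Around these 10 genes, 121 other genes of the calcium system were in the table, in 9 lists. The lists were chosen with earlier results of these data known, so counts within a list are descriptions. In Cd38-/- against Cd38+/+, 95 were tested, 8 were higher and 1, Cd38 itself, was lower. Of all genes tested, 6.42% were DEGs that were higher and 1.86% lower. The split moved with scaling: with median-ratio scaling 4 pathway genes were higher and 2 lower (4.7% and 3.33% of all genes), and with the length and GC trend removed 4 were higher and 9 lower (3.42% and 7.7% of all genes). Plch1, Itprip, Atp2a3 and Atp2b2 were the 4 higher genes in both. Plch1 and Itprip, also counted among the 8, were tested only because their Cd38-/- means were above the limit on low values. Neither was called with Benjamini-Hochberg adjustment (limma, adjusted p = 0.0549 and 0.0535), where 2.78% of all genes were. The median log2 fold change over the 95 genes was 0.11, beside 0.15 over all genes. In Cd38+/- against Cd38+/+, 0 of 94 were DEGs by limma. At an unadjusted p under 0.05, 14 were higher and 3 lower, beside 9.5% and 3.99% of all genes, and the median was 0.17 beside 0.18 over all genes. Between the mutant genotypes Cd38 was the 1 DEG of 93.

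The pumps of the stores and their regulators had 3 DEGs among 11 tested, beside 8.28% of all genes tested. Atp2a3, which encodes SERCA3, held 17.59, 27.71 and 8.86 TPM in Cd38+/+, 63.03, 30.77 and 32.19 in Cd38+/-, and 59.81, 45.38, 44.1, 39.77, 47.58 and 45.31 in Cd38-/-. The mutant libraries were all above the Cd38+/+ libraries. On the log2 scale Cd38-/- was higher by 1.45 (SE 0.28, limma q = 0.0165), and by 1.22 with the length and GC trend removed (limma q = 0.0188). Atp2a3 and Atp2a2 are thus both higher in Cd38-/-, with Atp2a2 at the higher TPM in all 12 libraries.

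Tmx1 and Canx, redox and lectin chaperones of the endoplasmic reticulum that act on SERCA, were the other 2, higher by 0.64 and 0.48 on the log2 scale (limma q = 0.0397 and 0.0465). Neither was a DEG with either rescaling, median-ratio scaling or removal of the length and GC trend. Mrln, a small peptide gene that inhibits SERCA, had the lowest value of the list at -0.22 (limma q = 0.379).

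Buffers of the store lumen had 2 DEGs among 8 tested, beside the same 8.28% of all genes. Casq2, the calcium-binding calsequestrin of cardiac muscle, was at 18.84, 19.51 and 32.59 TPM in Cd38+/+ and between 34.28 and 54.8 in Cd38-/-. Its log2 fold change was 0.81 (limma q = 0.0362). Hsp90b1, the chaperone GRP94, was higher by 0.47 (limma q = 0.0300), while Hspa5, the chaperone BiP and a standard readout of store stress, was at -0.090 (limma q = 0.451). The calls of Casq2 and Hsp90b1 were also lost with either rescaling.

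Upstream of the IP3 receptors, 1 of 9 phospholipase C genes and 1 of 24 receptor regulators were DEGs, beside 8.28% of all genes. Plch1 and Itprip were above the limit on low values in Cd38-/- and not in Cd38+/+ (means of 18.9 and 6.79 TPM against 4.39 and 1.38), so they were tested only because they were high in Cd38-/-, and their calls are given as a description. Plch1, which encodes phospholipase C eta 1, was at 2.5, 0.04 and 10.64 TPM in Cd38+/+ and between 10.03 and 28.65 in Cd38-/-, with a log2 fold change of 2.43 (limma q = 0.0310) and a slight overlap. Itprip, an IP3 receptor interacting protein gene, was at 0.5, 0 and 3.64 TPM in Cd38+/+ and between 5.11 and 11.11 in Cd38-/-, a log2 fold change of 1.99 (limma q = 0.0303). Both were DEGs with either rescaling. Plcd4 was at -0.11 (limma q = 0.396) and Jph3, a junctophilin that ties the store to the plasma membrane, at -1.19 (limma q = 0.0681). Jph3 was a DEG, and lower, with the length and GC trend removed (-1.33, limma q = 0.0364).

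Of 5 genes tested for removal of calcium across the plasma membrane, 1 was a DEG, beside 8.28% of all genes. Atp2b2, the pump PMCA2, held 5.29, 12.03 and 8.99 TPM in Cd38+/+, 49.82, 27.01 and 28.49 in Cd38+/-, and 13.96 to 27.74 in Cd38-/-. All mutant libraries were above Cd38+/+, and the log2 fold change in Cd38-/- was 1.29 (limma q = 0.0263), or 0.98 with the length and GC trend removed. Slc24a3, a potassium-dependent sodium-calcium exchanger, was at -0.48 (limma q = 0.129), and was a DEG that was lower with the length and GC trend removed (-0.78, limma q = 0.0230).

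The other 4 lists had no DEG by limma in Cd38-/- apart from Cd38. At an unadjusted p under 0.05, 3 store-operated entry partners and 3 mitochondrial genes were higher, 1 gene of the NAADP list was lower, and the messenger enzymes had 2 lower with Cd38 counted. Of all genes tested, 17.6% were higher and 5.99% lower at that p. Tpcn2 and Tpcn1, the two-pore channels of the NAADP arm, were at 0.90 and -0.73 (limma q = 0.183 and 0.0866), the ends of a list of 5 tested genes. Tpcn1 was a DEG, and lower, with median-ratio scaling (-0.85, limma q = 0.0494) and with the length and GC trend removed (-0.98, limma q = 0.0202). Among 13 store-operated entry partners the ends were Trpc1 at 1.09 (limma q = 0.0532) and Trpm4 at -0.59 (limma q = 0.181). Among 14 mitochondrial genes the lowest value was that of Micu3, at -0.28 (limma q = 0.295). Among the messenger enzymes, Nudt5, an ADP-ribose hydrolase, was at 0.21 (limma q = 0.334), and Bst1, the other cyclase of the Cd38 family, did not exceed 0.38 TPM in any library.

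**Figure D4:**
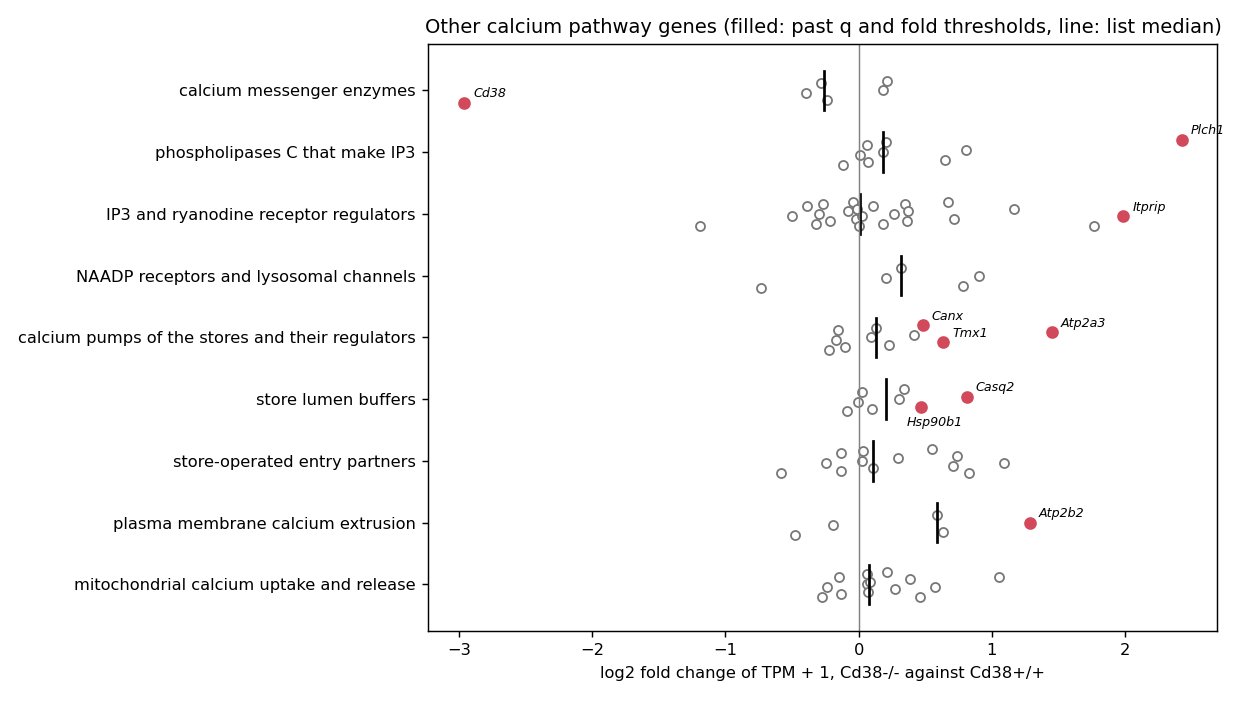
Log2 fold change of TPM + 1 in Cd38-/- against Cd38+/+ for the tested genes of 9 calcium lists (rows). Each point is a gene, filled where it is a DEG, and the vertical line is the list median. The filled points are Cd38 at -2.96 and 8 genes to the right of 0, from Hsp90b1 at 0.47 to Plch1 at 2.43, and the list medians run from -0.26 to 0.59, beside 0.15 over all genes.

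Leaving out libraries moved the number of these DEGs. It was 23 without Cd38+/+ replicate 3, 20 without replicate 2 and 17 without replicate 1 of that genotype, where 26.5%, 16.5% and 15.5% of all genes were DEGs. It was 1 or 2 without Cd38-/- replicate 1, 2, 5 or 6, where the share of all genes was 0.633 to 1.31%. Of the 8 genes that were higher, Atp2a3 kept its call in 7 of 9 such fits, Canx in 2, Tmx1 and Casq2 in 3, and Plch1, Itprip, Hsp90b1 and Atp2b2 in 5.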

How the data were processed

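The authors trimmed reads with Trim Galore 0.6.4, aligned them to mm10 with STAR 2.7.1a and estimated expression with RSEM 1.2.28, per the labels' processing notes, which also name DESeq2 1.36.0. The deposited values are TPM with 2 decimals for 20614 genes, 1 column per library, made from a low-input full-length cDNA kit. The depth is unknown, which leaves counting error without an estimate.

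Genotypes came from the labels. For each pair of genotypes, genes with a mean above 5 TPM in at least 1 of them entered a limma 3.58.1 fit (lmFit, eBayes with trend, R 4.3.3) of log2(TPM + 1) on the compared libraries only. Storey q-values used lambda from 0.05 to 0.95 in steps of 0.05. The fit was also run on simulated data. There both compared genotypes had the same spread, unlike the libraries here, so that run gives no error rate for them. Each of the 10 genes also had a two-sided exact permutation test of mean log2(TPM + 1) between libraries. Positions and lengths came from GENCODE vM21. Named were Cd38, the 10 genes, every DEG of the pathway lists, the largest rise and fall of each list, and the 3 genes most like Itpr2. Of these, 1 gene is not reported here. Aven and Bst1 were named after their values were seen. The genes and lists were chosen with earlier results of these data known. Alternatives were pseudocounts of 0.1 and 5, no limit on low values, Benjamini-Hochberg adjustment, library quality weights (statmod 1.5.0), median-ratio scaling, removal of the length and GC trend (spline with 4 degrees of freedom), a replicate block, both together, all 12 libraries in 1 fit, and leaving out each library.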

Additional observations from a re-analysis of the deposited data

Results flagged for a closer look

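Over the 6 Cd38-/- libraries, 19 genes and 9 sums, shares or ratios made from them were examined, which are not independent of each other. Of these 28, 2 had a library whose distance from its nearest neighbour was large against the whole range (Dixon's criterion at 95%), where chance flags about 1 in 20. Orai1 was at 64.27 TPM in Cd38-/- replicate 4, the highest of a genotype whose other libraries lay between 46.06 and 51.12. Itprip was at 11.11 TPM in Cd38-/- replicate 1, above 6.74, the next highest.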

How the results depend on the processing

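Atp2a2 stayed higher in Cd38-/- than in Cd38+/+ under every alternative run, from 0.32 to 0.79 on the log2 scale, and its limma q lay between 0.0158 and 0.422. The number of the 10 genes called in that comparison was 1, against 2 without the limit on low values, 0 with library quality weights and 0 to 1 on leaving out a library. In Cd38+/- against Cd38+/+ it was 0, and 1 without the limit (Ryr2) or with all 12 libraries in 1 fit (Atp2a2). Between the mutant genotypes it was 0, and 1 with library quality weights (Atp2a2, -0.27, limma q = 0.0189). Pathway genes called in Cd38-/- against Cd38+/+ were 9, against 19 without the limit (12.1% of all genes), 3 with Benjamini-Hochberg adjustment (2.78%), 0 with library quality weights (0.00853%), 16 with all 12 libraries (15.5%) and 1 to 23 on leaving out a library (0.633 to 26.5%). In Cd38+/- they were 0, with 4 without the limit (3.85%) and 14 with all libraries (12.4%). Between the mutant genotypes they were 1, with 31 under library quality weights (27%), 6 under the replicate block with the length and GC trend removed (4.52%), and 0 to 2 on leaving out a library, 0 without Cd38+/- replicate 3 and 2 without Cd38-/- replicate 4. The estimation of the weights stopped before reaching its tolerance in both comparisons with Cd38+/-. Except where fewer or more genes or libraries entered, the cause was not tested.

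Pairing by replicate number was not seen, and so few libraries cannot exclude it. Of 9 pairs with the same number, 1 had a correlation of deviations over 0.1 (highest 0.454, median -0.0068). Of 36 pairs with different numbers 9 did (highest 0.515, median -0.0035). With the replicate block, 0 of the 10 genes and 1 pathway gene (0.0171% of all genes) were called in Cd38-/- against Cd38+/+, with or without the length and GC trend, and the limma q of Atp2a2 was 0.318 at a log2 change of 0.71. Cd38-/- replicates 4, 5 and 6 share their number with no library of another genotype. The block terms absorb these libraries, so fewer libraries enter the contrast. An effect of the block cannot be told apart from their loss.

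Of all DEGs in Cd38-/- against Cd38+/+, 77.5% were higher as deposited, 58.6% with median-ratio scaling (median gene 0.033) and 30.8% with the trend removed (median gene -0.064). Genes without a call changed sign under some settings. In Cd38-/- against Cd38+/+ these were Itpr1 (-0.017 with median-ratio scaling, -0.22 with the trend removed, -0.22 with block and trend), Itpr3 (-0.068 with pseudocount 5), Ryr3 (0.097) and Trpm2 (0.49) with pseudocount 0.1, and Stim1 (0.019 with the block). In Cd38+/- against Cd38+/+ they were Itpr2 (-0.12) and Stim1 (-0.21) with the trend removed, the same with the block added, Itpr3 (-0.13 with pseudocount 5), Trpm2 (0.81 with pseudocount 0.1) and Orai1 (-0.14 with weights, -0.13 with median-ratio scaling, -0.024 with the trend removed, also with the block).

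Leaving out a library turned the sign of further log2 changes. In Cd38-/- against Cd38+/+ the ranges were -0.077 to 0.25 for Itpr1, -0.35 to 0.057 for Itpr2, -0.23 to 1.48 for Itpr3, -0.68 to 0.41 for Ryr3, -0.14 to 0.021 for Stim1 and -0.79 to 0.74 for Trpm2. In Cd38+/- against Cd38+/+ they were -0.46 to 1.25 for Itpr3, -0.83 to 0.25 for Ryr3, -0.075 to 0.083 for Orai1 and -0.73 to 0.81 for Trpm2. Between the mutant genotypes they were -0.70 to 0.00063 for Itpr1, -0.067 to 0.72 for Itpr3, -0.038 to 0.12 for Ryr1 and -0.21 to 0.053 for Trpm2.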

Other observations

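The genes whose pattern was most like that of Itpr2 over the 12 libraries, among 11845 expressed genes, were Dgkz, a diacylglycerol kinase (Pearson's r 0.961, Spearman's rho 0.958), Pcdh11x, a protocadherin (0.954 and 0.874), and Elovl4, a fatty acid elongase (0.947 and 0.846). The libraries share genotype and preparation, so these are descriptions without a test.

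Within a genotype, some libraries were the highest or lowest for several of the 10 genes. Cd38+/- replicate 1 was the highest of its genotype for 9 of 10 genes, all but Ryr1, and Cd38+/- replicate 2 the lowest for 7. How often each library was the highest or lowest over all genes was not counted. The median gene was higher by 0.18 on the log2 scale in Cd38+/- than in Cd38+/+. This was 0.12 without Cd38+/- replicate 1 and 0.24 without Cd38+/- replicate 2. The choroid plexus markers summed to 7009 TPM in replicate 1, against 484 and 192 in replicates 2 and 3, and the oligodendrocyte markers to 11030 TPM in replicate 2, against 3093 and 3827 in replicates 1 and 3. Among Cd38-/- libraries, replicate 3 was the lowest for 6 genes (Atp2a2, Itpr1, Itpr2, Ryr1, Ryr3 and Stim1), and replicate 1 the highest for 4 (Atp2a2, Itpr3, Ryr2 and Stim1). The oligodendrocyte markers summed to 17814 TPM in replicate 3, above the 11998 of its astrocyte markers. They summed to 3176 to 9314 TPM in the other Cd38-/- libraries. The part of these cells in the order of the libraries was not tested.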
